A study of Mus musculus with 13 samples.

Results

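The genes described here encode 10 RNA storage and translational repression factors of the mouse oocyte: Ybx2, Zar1, Zar1l, Ddx6, Lsm14a, Lsm14b, Eif4enif1, Eif4e1b, Patl2 and Igf2bp2. They were chosen by name, each symbol matched 1 row of the deposited count table of 54232 genes, and all 10 passed the filter on low counts that left 20143 genes for testing. RNA was sequenced from 13 pools of 25 oocytes or eggs each. MII eggs (matured eggs halted at the second meiotic metaphase) came from Sirena1 Null females (4 pools) and from WT females (3 pools), and were collected 12 to 14 h after hCG. GV oocytes (fully grown, with an intact germinal vesicle, before meiosis resumes) came from Sirena1 Null females (3 pools) and from WT females (3 pools), and were held in 0.2 mM IBMX, a phosphodiesterase inhibitor that keeps them at this stage. Sirena1 is a long noncoding RNA of the oocyte. Per the labels' protocols the Null mice lack its promoter after a Cas9-mediated deletion and were bred from heterozygotes after crosses to C57BL/6NCrl, while all libraries are labelled C57BL6/J. All females were superovulated, and each sample received 0.2 pg of Renilla luciferase RNA. No animal ages are given, and the labels do not say whether the pools came from separate females, so p-values measure the spread between pools.

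A growing oocyte makes far more mRNA than it translates. The surplus is bound by proteins, kept silent with short poly(A) tails, and translated or destroyed in order as the oocyte matures and the embryo begins. In the mouse, ZAR1 gathers stored mRNAs together with YBX2, DDX6, LSM14B and 4E-T in a compartment around mitochondria, and the loss of YBX2 destabilizes maternal mRNAs. The helicase DDX6, with LSM14 proteins, PAT1 proteins and the eIF4E-binding protein 4E-T, forms repressive particles that hold mRNAs away from ribosomes.

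Values are CPM, counts scaled to the size of each library with TMM factors, and a difference was called where the adjusted p of edgeR's quasi-likelihood test over all 20143 genes was below 0.05. Total counts per library ran from 30867614 to 41285507. The members had between 740 counts (Patl2) and 38549 counts (Eif4enif1) in a library, so all lay far above a detection limit of 3 counts, a limit that covers counting error only. Sirena1, listed under the symbol C86187, ran from 35.9 to 45.0 CPM in Null eggs against 4271 to 4693 CPM in WT eggs, and from 23.3 to 26.4 CPM in Null GV oocytes against 2912 to 3092 CPM in WT GV oocytes. The 12 oocyte markers summed to 10799 to 15781 CPM in each library. The 21 cumulus and granulosa cell markers summed to 95.2 to 128 CPM in Null eggs, 103 to 107 CPM in WT eggs, 181, 724 and 332 CPM in Null GV replicates 1, 2 and 3, and 150 to 199 CPM in WT GV oocytes. Nr5a2 and Cyp19a1 made up most of these sums in eggs. Together with Ccnd2 they made up most of the sum in each GV library except Null GV replicates 2 and 3. The other 18 markers, set apart after their values were seen, summed to 5.98, 5.15, 6.32 and 19.8 CPM in Null egg replicates 1 to 4 and 6.60 to 7.96 CPM in WT eggs, and to 19.4, 561 and 174 CPM in Null GV replicates 1, 2 and 3 and 15.4 to 45.3 CPM in WT GV oocytes. In Null egg replicate 4, 2 of the 21 markers were at 0, against 8 to 10 in the other Null eggs and 9 to 11 in WT eggs. On the leading principal component that library lay at 25.7, against 65.8 to 81.4 for the other Null eggs. On the same component Null GV replicates 2 and 3 lay at -107.9 and -91.1. Null GV replicate 1 lay at -64.4, and WT GV oocytes lay from -71.3 to -66.7. A level in a pool is a share of its RNA, so fewer cells of a type and less RNA per cell cannot be told apart. Levels of different genes are not ranked against each other, since no transcript lengths were used here.

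The first comparison set MII eggs against GV oocytes within each genotype. Here a rise or fall is a change in scaled counts and not in amount per cell. The added Renilla RNA was not used for scaling. In Null oocytes 6 members rose and 3 fell between GV and MII, and in WT oocytes 4 rose and 3 fell. Ybx2, Igf2bp2, Lsm14a and Eif4enif1 rose in both genotypes, by 1.27 to 1.58-fold. Zar1, Zar1l and Patl2 fell in both, by 1.29 to 2.08-fold. The 7 genes that passed in WT also passed in Null and in the same direction, and these comparisons share no libraries, although the fit shares 1 estimate of spread per gene. Without Null egg replicate 4, 10 members passed in Null and 8 in WT. Without GV Null replicates 2 and 3, 6 passed in Null and 7 in WT, in a fit where the lone Null GV library is assumed to vary like the other groups. Those counts stand against a high background. Of all genes tested 49% passed in Null (22.1% higher, 26.9% lower) and 42.7% in WT (19.9% higher, 22.8% lower). Of the 6265 genes with a mean of at least 20 CPM, a level each member reached, 68.1% passed in Null (51.2% higher, 17% lower) and 62.8% in WT (45% higher, 17.8% lower). A share of 7 of 10 in WT is near that background. The share of 9 of 10 in Null lies above it, but it rests on 10 genes and that gap was not tested. Egg and GV libraries did not overlap for 8 members in Null (6 above, 2 below), where this held for 46.4% of all genes (21.2% above, 25.2% below). In WT they did not overlap for 9 members (5 above, 4 below), where it held for 58.3% of all genes (28.2% above, 30.1% below). Shares without overlap were not computed for genes of at least 20 CPM, so these counts lack a background of like level. The median log2 fold change of the members was 0.33 in Null and 0.19 in WT, against -0.05 and 0.01 over all genes tested and 0.24 and 0.21 over genes of at least 20 CPM.

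**Figure D1:**
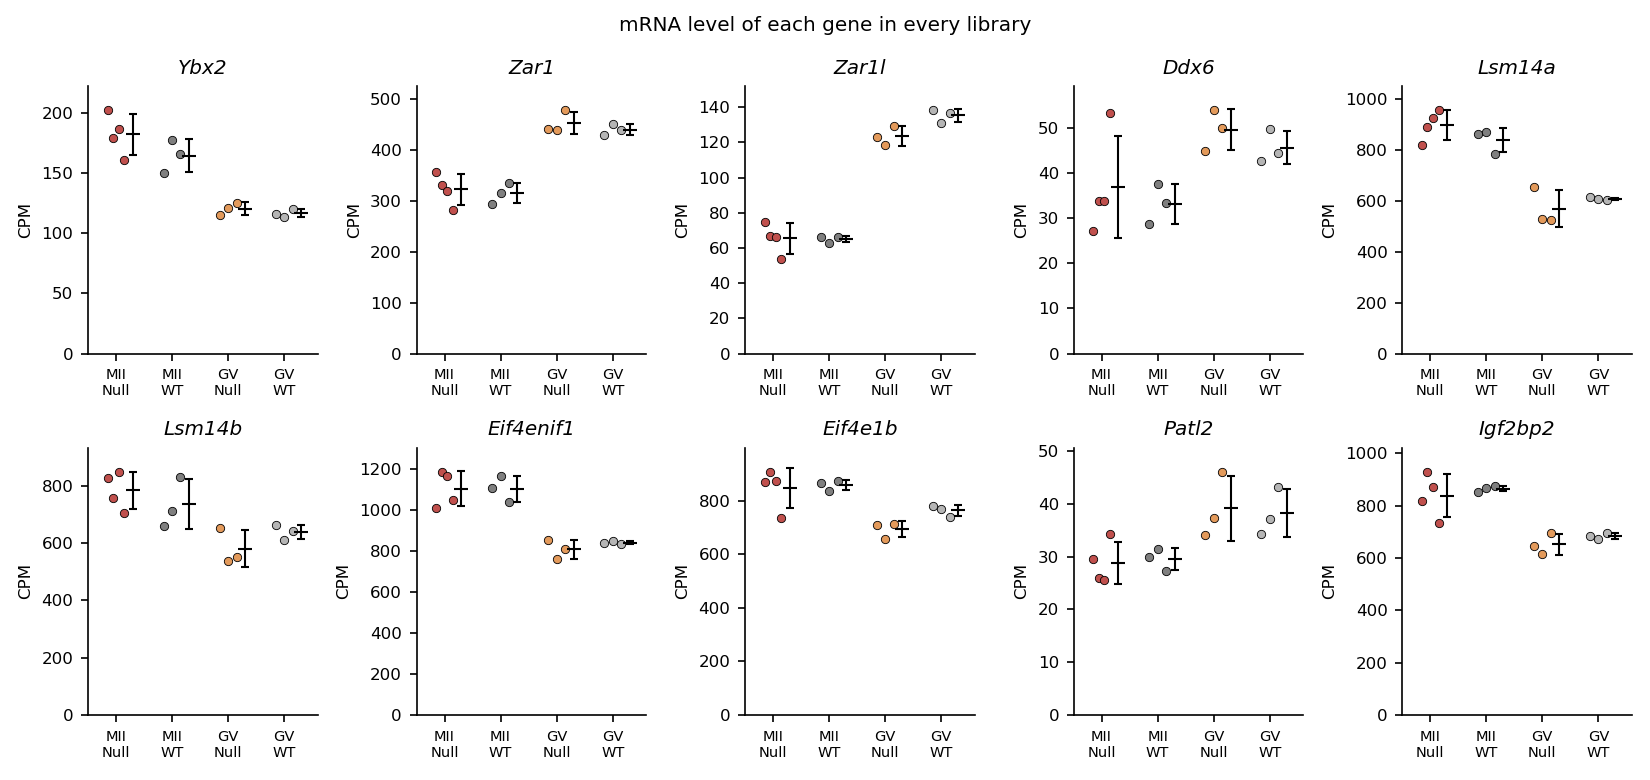
Level of each of the 10 mRNAs in every library, in CPM with TMM factors (axis from 0), for MII Null (n = 4), MII WT (n = 3), GV Null (n = 3) and GV WT (n = 3). Points are libraries and bars are mean ± SD; Zar1 and Zar1l lie lower in every egg library than in every GV library, while Ybx2, Lsm14a, Eif4enif1 and Igf2bp2 lie higher.

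Ybx2 (ENSMUSG00000018554, on chromosome 11 from 69935805 to 69941604 in GRCm38.p6) encodes the germ cell Y-box protein that coats maternal mRNAs. Its level was 202, 179, 186 and 161 CPM in Null eggs and 150, 177 and 166 CPM in WT eggs, against 115, 121 and 125 CPM in Null GV oocytes and 116, 113 and 120 CPM in WT GV oocytes. Every egg library lay above every GV library. Ybx2 rose 1.51-fold in Null (log2 0.60, SE 0.08, adjusted p = 7.88e-06) and 1.41-fold in WT (log2 0.50, SE 0.09, adjusted p = 0.000124). Among genes of at least 20 CPM, 91.5% in Null and 85.8% in WT had a lower fold change.

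Igf2bp2 (ENSMUSG00000033581, chromosome 16, 22059009 to 22163299) encodes an RNA-binding protein with KH domains that stabilizes and localizes mRNAs and is supplied by the egg. It stood at 819, 929.6, 871 and 736 CPM in Null eggs and 854, 868 and 876 CPM in WT eggs, against 647, 616 and 694 CPM in Null GV oocytes and 683, 671 and 695 CPM in WT GV oocytes. The stages did not overlap, and Null egg replicate 4 was the lowest of the eggs. The rise was 1.29-fold in Null (log2 0.36, SE 0.07, adjusted p = 0.000581) and 1.27-fold in WT (log2 0.34, SE 0.08, adjusted p = 0.00189). It was no longer called with library totals in place of TMM factors (log2 0.13, adjusted p = 0.0916 in Null, and log2 0.14, adjusted p = 0.109 in WT).

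Zar1 (ENSMUSG00000063935, chromosome 5, 72577113 to 72581361) and its paralog Zar1l (ENSMUSG00000056586, chromosome 5, 150507055 to 150518194) encode zinc finger proteins that bind stored mRNAs. Zar1 had 357, 331, 320 and 283 CPM in Null eggs and 295, 316 and 335 CPM in WT eggs, against 442, 439 and 478 CPM in Null GV oocytes and 429, 450.4 and 439.5 CPM in WT GV oocytes. It fell 1.404-fold in Null (log2 -0.49, SE 0.08, adjusted p = 3.46e-05) and 1.395-fold in WT (log2 -0.48, SE 0.08, adjusted p = 0.000113). Zar1l had 74.7, 66.9, 66.2 and 53.7 CPM in Null eggs and 66.0, 63.1 and 66.0 CPM in WT eggs, against 123, 118 and 129 CPM in Null GV oocytes and 138, 131 and 136 CPM in WT GV oocytes. For both paralogs the eggs lay wholly below the GV oocytes, and Null egg replicate 4 had the lowest value. The change in Zar1l was the largest among the members, a 1.89-fold fall in Null (log2 -0.92, SE 0.09, adjusted p = 1.07e-07) and a 2.08-fold fall in WT (log2 -1.06, SE 0.09, adjusted p = 6.00e-08), and it was the only member past a minimum of 1.5-fold in either genotype. Of genes with at least 20 CPM, 6.51% in Null and 5.59% in WT had a lower fold change than Zar1l.

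Ratios of counts within a library do not depend on the scaling, and a change in them shows unequal change of the genes compared. Zar1l counts were 20.2 ± 0.86% of Zar1 counts in Null eggs (n = 4) and 20.7 ± 1.48% in WT eggs (n = 3), against 27.3 ± 0.49% in Null GV oocytes and 30.8 ± 1.56% in WT GV oocytes (SD, n = 3 each). Ybx2 counts per Zar1 count were 0.56 ± 0.02 in Null eggs and 0.52 ± 0.03 in WT eggs, against 0.27 ± 0.01 in Null GV oocytes and 0.27 ± 0.01 in WT GV oocytes. In both ratios the stages did not overlap. Lsm14b counts per Lsm14a count were 0.88 ± 0.11 in Null eggs and 0.88 ± 0.16 in WT eggs, against 1.024 ± 0.025 in Null GV oocytes and 1.05 ± 0.04 in WT GV oocytes, and these stages overlapped. Since transcript length enters a count, a ratio is not the ratio of molecules, and no test was run on these values. In GV oocytes the Zar1l share of Zar1 ran from 26.9% to 27.8% in Null and from 29.1% to 32.2% in WT, while in eggs the genotypes overlapped.

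**Figure D2:**
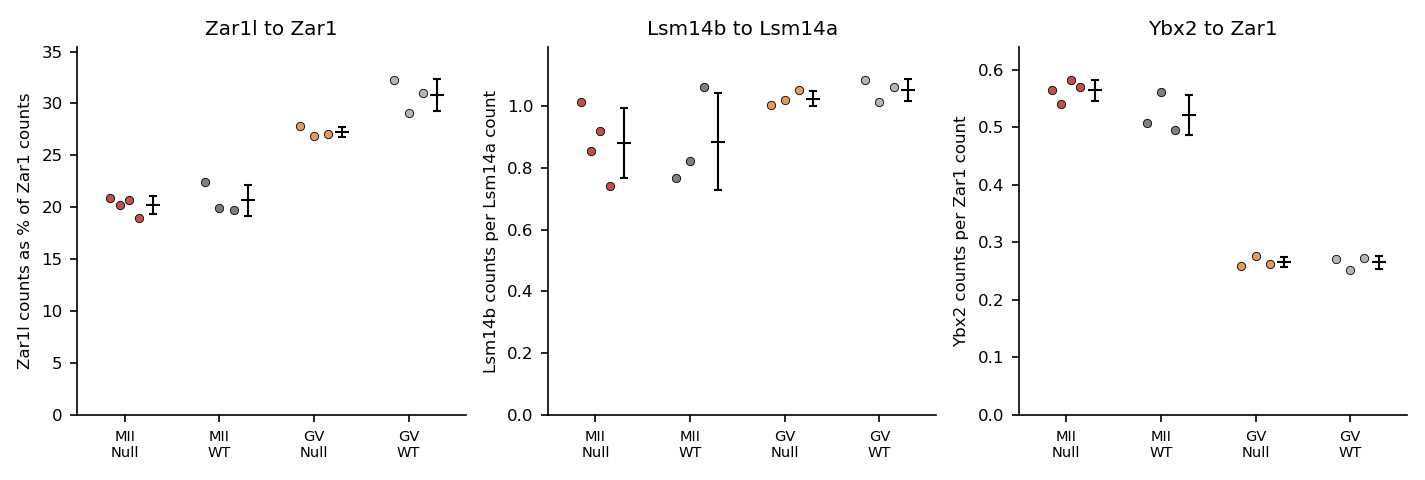
Counts of Zar1l as a percentage of Zar1, of Lsm14b per Lsm14a and of Ybx2 per Zar1 in each library (axes from 0), for MII Null (n = 4), MII WT (n = 3), GV Null (n = 3) and GV WT (n = 3). Points are libraries and bars mean ± SD; Zar1l to Zar1 is lower and Ybx2 to Zar1 higher in all eggs, while Lsm14b to Lsm14a spreads from 0.74 to 1.06 in eggs and from 1.00 to 1.08 in GV oocytes.

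The promoters of Zar1 and Zar1l are shown because both genes fell in both genotypes, that of Ybx2 because it rose in both, and that of Lsm14b because it rose in Null while it did not pass in WT (log2 0.20, adjusted p = 0.0977). RefSeq windows of GRCm38.p6, from 250 bases before to 50 bases after a start site, were found for 8 of the 10 members, with 12 windows in all since Ybx2 has 2 and Eif4enif1 has 4; Ddx6 and Eif4e1b had no entry. Searched on both strands were CANNTG, the E-box letters that the oocyte factor FIGLA and many other factors bind, and TAATTG and TAATTA, letters described for the oocyte factor NOBOX. Capitals mark these letters in the first window of each gene, 5′ to 3′ on the strand of the gene, from chr5:72581035-72581334 (Zar1, minus), chr5:150518110-150518409 (Zar1l, minus), chr11:69935649-69935948 (Ybx2, plus) and chr2:180024737-180025036 (Lsm14b, plus).
Zar1: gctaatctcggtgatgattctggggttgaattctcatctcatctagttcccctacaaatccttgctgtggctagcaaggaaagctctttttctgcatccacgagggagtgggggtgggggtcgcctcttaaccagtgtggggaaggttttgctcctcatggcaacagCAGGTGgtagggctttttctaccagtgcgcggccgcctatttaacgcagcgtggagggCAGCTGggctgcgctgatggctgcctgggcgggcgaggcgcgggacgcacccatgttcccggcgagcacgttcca
Zar1l: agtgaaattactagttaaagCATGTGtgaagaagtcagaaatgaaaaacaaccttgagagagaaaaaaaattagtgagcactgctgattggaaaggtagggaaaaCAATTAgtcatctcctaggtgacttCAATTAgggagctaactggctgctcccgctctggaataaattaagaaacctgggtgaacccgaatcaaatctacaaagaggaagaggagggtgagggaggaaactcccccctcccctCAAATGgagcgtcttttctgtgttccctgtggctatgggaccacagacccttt
Ybx2: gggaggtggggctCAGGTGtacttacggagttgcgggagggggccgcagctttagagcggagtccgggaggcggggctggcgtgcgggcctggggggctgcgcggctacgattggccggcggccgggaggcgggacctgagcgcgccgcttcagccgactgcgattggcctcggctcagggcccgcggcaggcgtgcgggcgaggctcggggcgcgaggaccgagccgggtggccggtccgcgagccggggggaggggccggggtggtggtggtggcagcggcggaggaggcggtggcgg
Lsm14b: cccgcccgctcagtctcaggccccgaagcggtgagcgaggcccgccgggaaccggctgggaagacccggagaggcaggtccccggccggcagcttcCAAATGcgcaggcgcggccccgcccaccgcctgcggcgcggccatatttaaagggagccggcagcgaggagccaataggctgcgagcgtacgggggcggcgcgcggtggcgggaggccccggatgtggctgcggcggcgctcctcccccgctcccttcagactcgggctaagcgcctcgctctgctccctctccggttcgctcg
Zar1 holds 2 E-boxes, and Zar1l holds 2 E-boxes and 2 TAATTG matches, both read on the opposite strand. Ybx2 and Lsm14b hold 1 E-box each in the windows shown. Of all 32851 promoter windows 72.3% hold CANNTG, 8% hold TAATTG and 5.29% hold TAATTA, so the E-boxes are common and the TAATTG pair of Zar1l less so. The windows also differ in base composition. Guanine and cytosine made up 44.3% of the Zar1l window, 58.7% of the Zar1 window and 60.7% of the Patl2 window, the 3 genes that fell in both genotypes. They made up 78% and 75.3% of the Ybx2 windows, 70.3% for Lsm14a, 74.3% for Lsm14b, 76.7% for Igf2bp2 and 61.3% to 80.7% for the Eif4enif1 windows, against a median of 52.7% over all windows. A match is a description of letters and not of binding, and no test was run on 8 genes. Any link of these letters or of base composition to the change between stages was not tested.

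The DDX6 particle members did not move as a unit. Ddx6 (ENSMUSG00000032097, chromosome 9, 44602983 to 44640731), the RNA helicase at its core, had 27.1, 33.7, 33.7 and 53.2 CPM in Null eggs and 28.7, 37.6 and 33.3 CPM in WT eggs, against 44.8, 53.9 and 50.02 CPM in Null GV oocytes and 42.6, 49.7 and 44.4 CPM in WT GV oocytes. In WT the eggs lay below the GV oocytes, and in Null the same held for 3 of 4 eggs, replicate 4 lying among the GV values. Ddx6 did not pass in Null (log2 -0.43, SE 0.18, adjusted p = 0.0602) or in WT (log2 -0.46, SE 0.19, adjusted p = 0.0697). Without Null egg replicate 4 it passed in both, at log2 -0.68 in Null (adjusted p = 9.02e-05) and log2 -0.51 in WT (adjusted p = 0.00155), where the library enters through the shared fit alone. With DESeq2 it passed in both genotypes (adjusted p = 0.0306 in Null and 0.021 in WT), so the call depends on the method, while its sign was negative under every setting tried. Replicate 4 had fewer cumulus markers at 0 than the other eggs, and a higher sum over the 18 set apart after their values were seen. Over all 21 markers its sum was 128 CPM, against 95.2, 118 and 114 CPM in Null egg replicates 1, 2 and 3. The part of cumulus RNA in its Ddx6 level was not tested.

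Lsm14a (ENSMUSG00000066568, chromosome 7, 34344144 to 34390026) and Lsm14b (ENSMUSG00000039108, chromosome 2, 180024900 to 180035466) encode paralogous partners of DDX6, and LSM14B is needed for meiotic maturation in the mouse. Lsm14a had 817, 887, 925 and 954 CPM in Null eggs and 861, 869 and 783 CPM in WT eggs, against 653, 527.7 and 525.6 CPM in Null GV oocytes and 612, 605 and 604 CPM in WT GV oocytes. All eggs were above all GV oocytes, and it rose 1.58-fold in Null (log2 0.66, SE 0.08, adjusted p = 3.01e-06) and 1.38-fold in WT (log2 0.46, SE 0.09, adjusted p = 0.000254). Lsm14b had 826, 758, 849 and 706 CPM in Null eggs and 661, 713 and 832 CPM in WT eggs, against 654, 537 and 552 CPM in Null GV oocytes and 663, 613 and 641 CPM in WT GV oocytes. Here the Null stages were apart, while in WT egg replicate 1 lay within the GV range. Lsm14b rose 1.35-fold in Null (log2 0.43, SE 0.09, adjusted p = 0.000647), and in WT it stood at log2 0.20 (SE 0.10, adjusted p = 0.0977). It passed in WT without WT egg replicate 1 (log2 0.28, adjusted p = 0.0497) and with upper-quartile factors (log2 0.26, adjusted p = 0.0269). In Null it did not pass without GV Null replicates 2 and 3 (log2 0.26, adjusted p = 0.113). The Null and WT changes of Lsm14b were not shown to differ: the test of that difference gave log2 0.23 (SE 0.13, unadjusted p = 0.0962, adjusted p = 0.999).

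Patl2 (ENSMUSG00000027233, chromosome 2, 122120108 to 122186189) encodes the oocyte form of the PAT1 proteins, which in women is needed for oocyte maturation. It had 29.6, 25.9, 25.6 and 34.2 CPM in Null eggs and 30.0, 31.4 and 27.2 CPM in WT eggs, against 34.1, 37.2 and 46.0 CPM in Null GV oocytes and 34.2, 37.1 and 43.2 CPM in WT GV oocytes. The WT stages were apart, and in Null egg replicate 4 lay level with GV replicate 1. Patl2 fell 1.36-fold in Null (log2 -0.44, SE 0.12, adjusted p = 0.00548) and 1.29-fold in WT (log2 -0.37, SE 0.13, adjusted p = 0.0279). The WT call ended without GV WT replicate 2 or 3 (adjusted p = 0.0526 and 0.149), without WT egg replicate 1 or 3 (adjusted p = 0.0609 and 0.114) and with upper-quartile factors (adjusted p = 0.0624), and the Null call ended without GV Null replicate 3 (adjusted p = 0.0591) and without GV Null replicates 2 and 3 (adjusted p = 0.307). The RefSeq span of Patl2 covers the gene B2m, at 10.4 CPM in Null eggs, 13.5 CPM in WT eggs, 25.5 CPM in Null GV oocytes and 19.4 CPM in WT GV oocytes. The strand setting of the counts is not given in the sources used here, so reads from the overlap cannot be assigned with certainty.

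The cap-binding side consists of Eif4enif1 (ENSMUSG00000020454, chromosome 11, 3202343 to 3244588), which encodes 4E-T, the protein that links eIF4E to the DDX6 particle, and Eif4e1b (ENSMUSG00000074895, chromosome 13, 54783994 to 54788459), which encodes an oocyte form of the cap-binding protein eIF4E. Eif4enif1 had 1011, 1186, 1165 and 1050.1 CPM in Null eggs and 1106, 1165 and 1038 CPM in WT eggs, against 853, 762 and 808 CPM in Null GV oocytes and 838, 848 and 836 CPM in WT GV oocytes. No egg library overlapped a GV library, and the rise was 1.37-fold in Null (log2 0.45, SE 0.07, adjusted p = 4.95e-05) and 1.31-fold in WT (log2 0.39, SE 0.08, adjusted p = 0.000408). Eif4e1b had 869, 909, 875 and 737 CPM in Null eggs and 866, 838 and 874 CPM in WT eggs, against 709, 659 and 712 CPM in Null GV oocytes and 782, 770.03 and 742 CPM in WT GV oocytes. The eggs of each genotype lay above its GV oocytes, although Null egg replicate 4 lay below all 3 WT GV libraries. Eif4e1b rose 1.22-fold in Null (log2 0.29, SE 0.07, adjusted p = 0.00267), and in WT it stood at log2 0.17 (SE 0.08, adjusted p = 0.084). Its value depended on the scaling: with library totals it was log2 0.06 in Null (adjusted p = 0.425) and log2 -0.03 in WT (adjusted p = 0.728), while upper-quartile factors and a fit of only the WT groups called it in WT (adjusted p = 0.0151 and 0.0286). In Null the call also ended with a minimum mean of 5 CPM (adjusted p = 0.0867) and without GV Null replicates 2 and 3 (adjusted p = 0.0674).

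**Figure D3:**
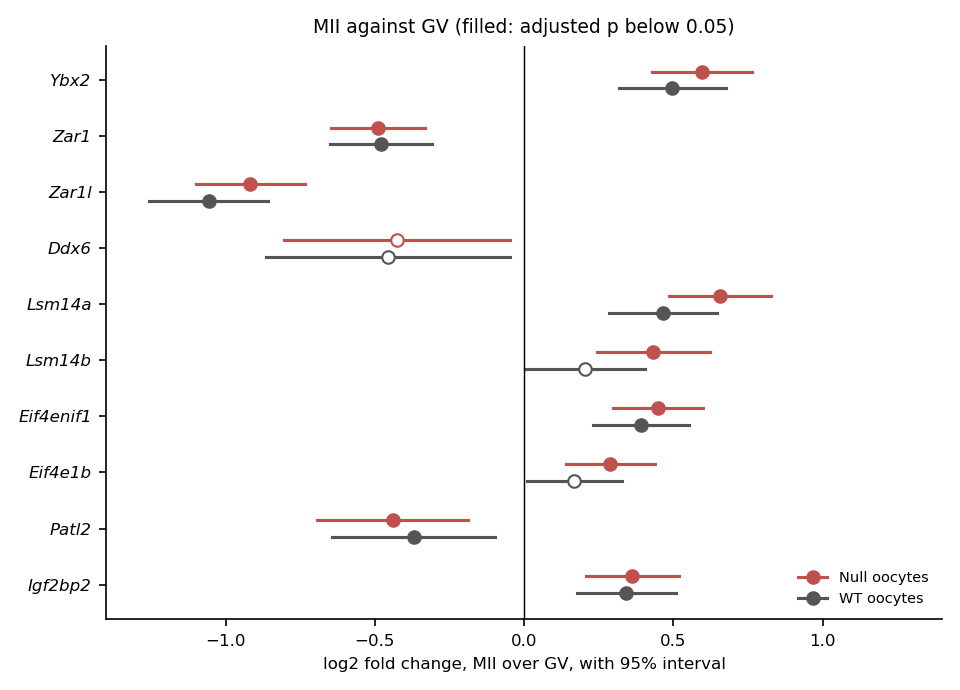
Log2 fold change from GV to MII with its 95% interval for each of the 10 mRNAs, in Null (red, above) and WT (grey, below). Filled points have an adjusted p below 0.05 (9 in Null, 7 in WT); the intervals of the genotypes overlap for every gene.

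Scaling set how large these shifts appear. With library totals alone the median log2 fold change of all genes tested became -0.28 in Null and -0.20 in WT, and 8 and 7 members passed, 4 higher and 4 lower in Null and 3 higher and 4 lower in WT, Ddx6 being added to the falls (adjusted p = 0.0135 and 0.0228). Of all 20143 genes tested, 9291 passed in Null and 7729 in WT with that scaling. Under all 3 other scalings tried, Zar1 and Zar1l were called lower and Ybx2, Lsm14a and Eif4enif1 higher in both genotypes. Patl2 was also called lower, except in WT with upper-quartile factors. The sign alone also held for Ddx6, Lsm14b and Igf2bp2, while Eif4e1b turned to log2 -0.03 in WT with library totals. The 10 members together held 0.475 ± 0.015% of all counts in Null eggs (n = 4) and 0.469 ± 0.006% in WT eggs (n = 3), against 0.445 ± 0.009% in Null GV oocytes and 0.464 ± 0.006% in WT GV oocytes (SD, n = 3 each).

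**Figure D4:**
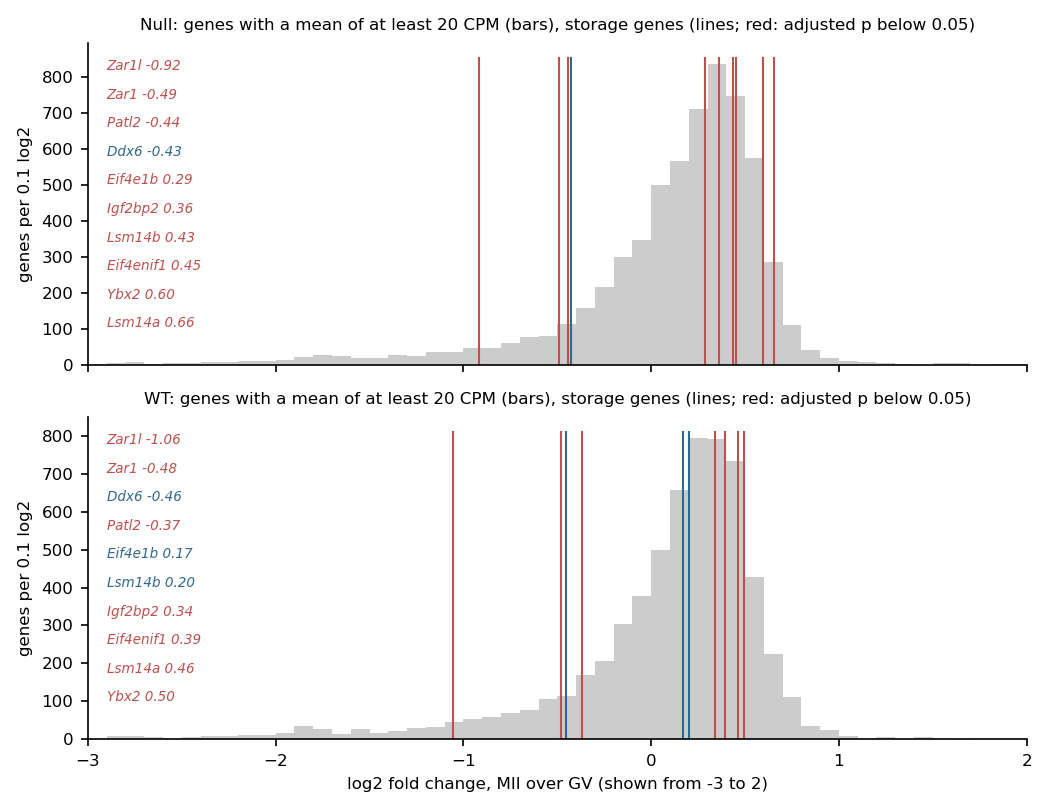
Histogram of log2 fold changes from GV to MII over 6265 genes with a mean of at least 20 CPM (grey bars, genes per 0.1 log2) in Null (top) and WT (bottom), with the 10 members as lines, red where the adjusted p is below 0.05 and blue where it is not. The axis leaves out 45 genes below and 3 above in Null, and 48 below and 6 above in WT; 6 members lie on the right of 0 within the main body of genes and 4 lie in the left shoulder.

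The order of the group means fell into 2 patterns. For Ybx2, Igf2bp2, Lsm14a, Lsm14b, Eif4enif1 and Eif4e1b both egg groups stood above both GV groups, and for Zar1, Zar1l, Ddx6 and Patl2 both GV groups stood above both egg groups. That split by itself makes the Null and WT means of a stage neighbours for every member, and none of these neighbours was called different by the test. From the highest to the lowest group mean the range was 1.24-fold for Eif4e1b and 2.08-fold for Zar1l, with the other 8 genes in between. Over the 13 libraries, log2 CPM of Zar1 and Zar1l correlated with Pearson r = 0.97 and Lsm14a and Eif4enif1 with r = 0.95, whereas Lsm14a and Zar1 gave r = -0.95. These are descriptions over libraries that fall into 2 stages, and the points share that split.

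Among 6265 genes of at least 20 CPM, the profile most like that of Zar1l was Dppa3 (r = 0.99 over 13 libraries), which encodes the maternal factor STELLA. Nearest to Zar1 were Myl12a (r = 0.98) and Cnih1, nearest to Ybx2 were Gm3143 and Tecr (r = 0.98 each), and nearest to Lsm14a were Ube2d2a and Scyl2 (r = 0.99 each). Eif4enif1 was closest to Atf7ip (r = 0.996) and Sec16a, Igf2bp2 to Zfp592 and Emsy (r = 0.98 each), Lsm14b to Rell1 (r = 0.97) and Gm44126, and Eif4e1b to Srfbp1 and Axin2 (r = 0.96 each). The weakest likeness was that of Ddx6 to Erbin (r = 0.93) and Gm26917, and of Patl2 to Cd9 (r = 0.94) and Chd9. No member was among the nearest 2 genes of another.

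Of 50 other genes of mRNA storage, repression and poly(A) protection, 48 were tested. In Null 21 rose and 11 fell, and in WT 19 rose and 10 fell, which is 66.7% and 60.4% of those tested, against 49% and 42.7% of all genes and 68.1% and 62.8% of genes of at least 20 CPM, a level that 35 of the 48 reached. The median log2 fold change of these genes was 0.14 in Null and 0.08 in WT, against 0.24 and 0.21 over genes of at least 20 CPM. Cpeb1, which encodes the protein that binds the cytoplasmic polyadenylation element and represses mRNAs before maturation, had 293, 269, 219 and 310.1 CPM in Null eggs and 259.9, 299 and 246 CPM in WT eggs, against 898, 737 and 799 CPM in Null GV oocytes and 859, 825 and 877 CPM in WT GV oocytes. It fell 2.97-fold in Null (adjusted p = 1.37e-09) and 3.18-fold in WT (adjusted p = 3.03e-09), more than any of the 10 members. Fxr2, a relative of the fragile X protein, fell to 23.2 ± 0.59 CPM in Null eggs, against 62.7 ± 4.06 CPM in Null GV oocytes (adjusted p = 7.71e-11), and to 20.4 ± 1.14 CPM in WT eggs, against 67.6 ± 1.68 CPM in WT GV oocytes (adjusted p = 4.46e-11).

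Cpeb4, a CPEB paralog that takes over late in maturation, rose 1.44-fold in Null (adjusted p = 1.88e-06) and 1.36-fold in WT (adjusted p = 3.35e-05), to 206 ± 9.47 CPM in Null eggs and 221 ± 3.99 CPM in WT eggs. Larp4, which protects poly(A) tails, rose 1.48-fold and 1.39-fold (adjusted p = 3.46e-06 and 5.41e-05), and Stau1, a double-stranded RNA binding protein, rose 1.398-fold and 1.357-fold (adjusted p = 1.24e-05 and 7.71e-05). Lin28a, an RNA-binding repressor of let-7 maturation, rose 1.53-fold in Null (adjusted p = 3.80e-06), and averaged 172 CPM in WT eggs against 127 CPM in WT GV oocytes. Ybx3, a Y-box paralog, rose 1.48-fold in Null and in WT (adjusted p = 1.58e-05 and 3.61e-05). Among the falls, Pabpc1, the somatic poly(A)-binding protein, had 10.5, 12.4, 10.9 and 23.8 CPM in Null eggs against 30.5, 57.6 and 47.0 CPM in Null GV oocytes (adjusted p = 0.000598), and averaged 15.05 ± 1.82 CPM in WT eggs against 31.1 ± 2.64 CPM in WT GV oocytes (adjusted p = 0.0181). Eif4ebp1, an inhibitor of eIF4E, averaged 0.13 ± 0.04 CPM in Null eggs, a few counts per library, against 0.42, 1.13 and 0.63 CPM in Null GV oocytes (adjusted p = 0.000529). Its WT means were 0.18 CPM in eggs and 0.45 CPM in GV oocytes. Both genes were highest in Null GV replicates 2 and 3 and in Null egg replicate 4 within their groups. These libraries also had the highest cumulus marker sums of their groups. In Null egg replicate 4 that sum was 128 CPM, against 95.2 to 118 CPM in the other Null eggs. The part of cumulus RNA in these values was not tested. In WT, Eif4e2, a cap-binding repressor, fell 1.60-fold (adjusted p = 0.000326) and Pabpn1l, a poly(A)-binding protein of the oocyte, fell 1.59-fold (adjusted p = 0.000537). Their Null means were also lower in eggs than in GV oocytes, at 11.5 against 14.3 CPM for Eif4e2 and 12.6 against 18.3 CPM for Pabpn1l.

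The second comparison set Null against WT in MII eggs. None of the 10 members passed in edgeR's quasi-likelihood test, none had an unadjusted p under 0.05, and none passed with DESeq2 or limma-trend. The background was low as well: 11 of 20143 genes passed, or 0.0546%. Ybx2 averaged 182 ± 17.0 CPM in Null eggs (n = 4) and 164 ± 13.9 CPM in WT eggs (n = 3), a 1.11-fold difference with a 95% interval from 0.986 to 1.24 (adjusted p = 0.824), and it had the smallest unadjusted p of the members, 0.0807. Eif4enif1 averaged 1103.2 ± 85.6 CPM in Null eggs and 1103.1 ± 63.8 CPM in WT eggs (fold 1.00, interval 0.902 to 1.11). The libraries of the genotypes overlapped for all 10 members, while 6.07% of genes tested showed no overlap. The intervals of the 10 genes ran at the widest from 0.817-fold (Patl2) to 1.45-fold (Ddx6). A p that misses the threshold does not show that the genotypes are alike. The median log2 fold change of the members was 0.02, against 0.01 over all genes.

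In GV oocytes the same test again called none of the 10, with no unadjusted p under 0.05 and none called by DESeq2 or limma-trend; the share of all genes called was 0.0546%. Eif4e1b averaged 694 ± 29.9 CPM in Null and 765 ± 20.8 CPM in WT (n = 3 each), a log2 fold change of -0.14 (SE 0.08, unadjusted p = 0.0814, adjusted p = 0.791). Zar1l averaged 124 ± 5.54 CPM in Null oocytes and 135 ± 3.65 CPM in WT oocytes (log2 -0.13, SE 0.09, adjusted p = 0.853). For these 2 genes all Null values were under all WT values, while 12.8% of all genes tested were separated in either direction and 5.93% in this one, and the other 8 members overlapped. The intervals ran at the widest from 0.792-fold (Lsm14b) to 1.44-fold (Ddx6), and the median of the members was -0.06, against 0.02 over all genes and -0.04 over genes of at least 20 CPM.

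Lsm14a and Lsm14b varied with the library in Null GV oocytes. Replicate 1 had 653 CPM of Lsm14a, above all WT values, and 654 CPM of Lsm14b, within the WT range, while replicates 2 and 3 had 527.7 and 525.6 CPM of Lsm14a and 537 and 552 CPM of Lsm14b, below all WT values. In replicates 2 and 3 the 21 cumulus markers summed to 724 and 332 CPM (561 and 174 CPM without Nr5a2, Cyp19a1 and Ccnd2), with none at 0, against 181 CPM (19.4 CPM without them) and 3 markers at 0 in replicate 1. With replicate 1 as the lone Null library, log2 fold changes of Null over WT were 0.10 for Lsm14a and 0.03 for Lsm14b, against -0.09 and -0.14 with all 3. The part of cumulus RNA in these values was not tested.

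**Figure D5:**
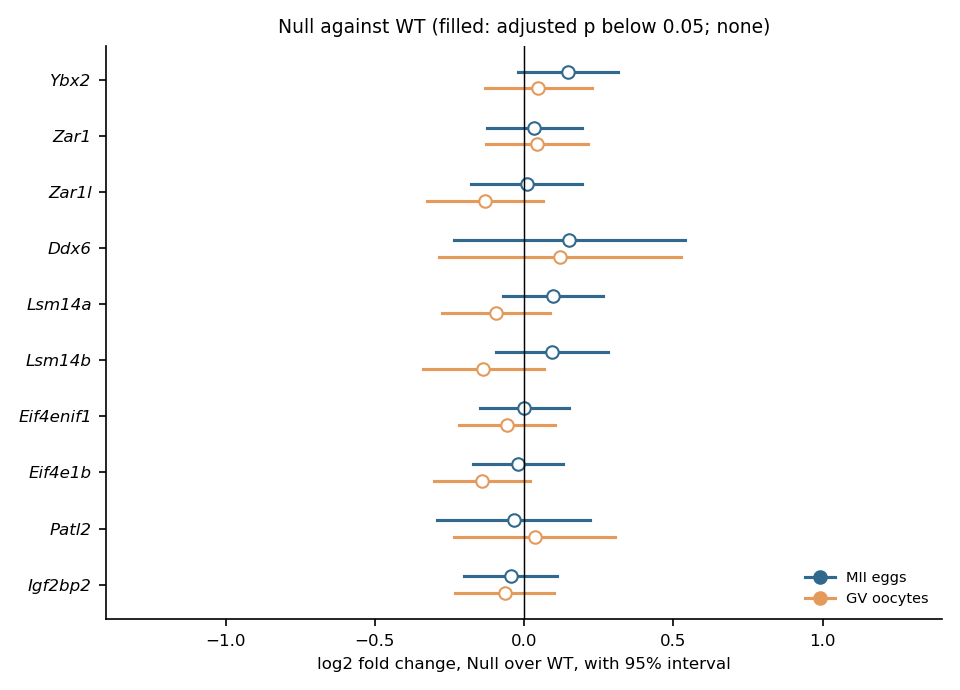
Log2 fold change of Null over WT with its 95% interval for each of the 10 mRNAs, in MII eggs (blue, above) and GV oocytes (orange, below). All points are open because no adjusted p was below 0.05, and every interval includes 0.

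Among the 48 partner genes none passed in either genotype comparison by edgeR's test, with 5 at an unadjusted p under 0.05 in eggs and 2 in GV oocytes. Of all 20143 genes tested, 1280 in eggs and 1342 in GV oocytes had an unadjusted p under 0.05 in that test. The smallest p in eggs belonged to Nanos1, a partner of Pumilio repressors, averaging 37.8 ± 6.56 CPM in Null eggs and 31.1 ± 1.29 CPM in WT eggs (log2 0.28, adjusted p = 0.718), and to Fmr1, the fragile X repressor, averaging 14.5 ± 2.495 CPM in Null eggs and 18.5 ± 3.80 CPM in WT eggs (log2 -0.35, adjusted p = 0.741). In GV oocytes they belonged to Cpeb4, averaging 143 ± 6.78 CPM in Null oocytes and 163.3 ± 0.39 CPM in WT oocytes (log2 -0.19, adjusted p = 0.670), and to Lin28a, averaging 111 ± 11.2 CPM in Null oocytes and 127 ± 2.47 CPM in WT oocytes (log2 -0.19, adjusted p = 0.716).

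A direct test of whether the genotype effect differed between MII eggs and GV oocytes called none of the 10 members, and none had an unadjusted p under 0.05 or passed with DESeq2 or limma-trend; 0.00496% of all genes passed. The differences in log2 fold change ran from -0.07 for Patl2 to 0.23 for Lsm14b, with adjusted p of 0.999 for each member. The partner genes gave none either, with 2 at an unadjusted p under 0.05, Fxr2 (log2 0.29, adjusted p = 0.999) and Eif4e2 (log2 0.37, adjusted p = 0.999). Over all 20143 genes tested, 681 had an unadjusted p under 0.05 in this test of the difference. The same values read as the difference between the maturation changes of Null and WT oocytes, so the additional calls of Lsm14b and Eif4e1b in Null are not shown to be particular to that genotype.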

How the data were processed

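The authors deposited a table of raw counts per gene of Ensembl release 93, per the file headers, with 1 column per pool; nothing was normalized. The submitters' processing notes list STAR 2.5.3a, bedtools 2.26.0 and the build GRCm38.p6 (mm10). Reads were 65 bp single-end, per the labels' protocols. Which tool counted the reads, whether it used strand and what it did with multimapped reads is not given in the sources used here. A table of gene names supplied the symbols, and coordinates and promoters come from RefSeq for GRCm38.p6. Groups came from the sample titles.

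The model was edgeR's quasi-likelihood fit (edgeR 4.0.16, R 4.3.3) to all 13 libraries, with 4 groups (TMM factors, filterByExpr by group, robust glmQLFit, two-sided glmQLFTest), with Benjamini-Hochberg adjustment over 20143 genes per comparison and a threshold of 0.05. The code was tested on simulated counts. Intervals of 95% use the standard error of the fit. Log2 CPM for correlations has a prior count of 2. Replicates of a group differed by more than sampling noise (chi-square per degree of freedom 5.03 to 34.3), so none was merged. The replicate numbers were not treated as pairs: deviations of same-numbered libraries correlated between -0.22 and 0.14. Such values cannot exclude that same-numbered pools were collected or prepared together.

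All 10 members were named. Of the partner list, up to 4 genes per direction with the smallest p were named where any passed, otherwise the 2 with the smallest p. For likeness, the 2 genes with the highest r were named, except 1 that is not reported here. The members and lists were chosen with earlier results of these data known. Alternatives were other scalings and filters, DESeq2 1.42.0, limma-trend (limma 3.58.1), a minimum fold, a fit of only the groups compared, a replicate block and leaving out libraries.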

Additional observations from a re-analysis of the deposited data

How the results depend on the processing

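No member passed for genotype in MII eggs, in GV oocytes or for the difference between stages under any alternative run, DESeq2, limma-trend and the replicate block included. Between stages 8 to 10 members passed in Null and 6 to 8 in WT when 1 library was left out, and 6 in Null without GV Null replicates 2 and 3; a minimum of 1.5-fold left 1 (Zar1l) in each genotype. With the replicate block, 10 passed in Null and 8 in WT, and 11, 12, 0, 9872 and 8752 genes passed for GV genotype, MII genotype, the difference, Null maturation and WT maturation. The numbers are not known to pair libraries, so this fit was run only as a variation.

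Over all genes, the genotype count in GV oocytes was 644 with no filter, 3 with a minimum of 1.5-fold, 27 with DESeq2, 1 without GV Null replicates 2 and 3, and 6 to 139 with 1 library left out. In MII eggs it was 290 with no filter, 7 with a mean of at least 5 CPM, 2 with the minimum fold, 41 with DESeq2, and 4 to 12 with 1 library left out. The difference gave 0 with RLE factors, with the minimum fold, with the block and without GV Null replicates 2 and 3, 157 with no filter, 2 with DESeq2, and 0 to 1 with 1 library left out. Null maturation gave 5843 with at least 5 CPM, 3230 with the minimum fold and 5672 without GV Null replicates 2 and 3; WT maturation gave 5355 with at least 5 CPM and 2707 with the minimum fold. The cause was not tested.

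With 1 library left in a group, it is assumed to vary like the other groups. Signs turned only where a member was not called. In GV oocytes without GV Null replicates 2 and 3, log2 fold changes of Null over WT became -0.022 for Ybx2, -0.026 for Ddx6, 0.103 for Lsm14a, 0.033 for Lsm14b, 0.020 for Eif4enif1 and -0.162 for Patl2, and Patl2 ran from -0.099 to 0.130 with 1 library left out. In MII eggs, library totals gave -0.0012 for Zar1l and -0.0091 for Eif4enif1, limma-trend -0.0020 for Zar1l and -0.0015 for Eif4enif1, at least 5 CPM -0.0042 and only the groups compared -0.0019 for Eif4enif1, and the block -0.076 for Ddx6, 0.042 for Eif4e1b and 0.012 for Igf2bp2. With 1 library left out the MII values ran from -0.012 to 0.110 for Zar1, -0.056 to 0.109 for Zar1l, -0.064 to 0.281 for Ddx6, -0.041 to 0.046 for Eif4enif1, -0.042 to 0.058 for Eif4e1b, -0.110 to 0.035 for Patl2 and -0.085 to 0.029 for Igf2bp2.

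For the difference between stages, Zar1 became 0.024 with RLE factors, 0.013 with no filter, 0.051 with the block, 0.029 without GV Null replicates 2 and 3 and 0.024 with DESeq2. Ddx6 became -0.196 with the block and -0.0057 with limma-trend, and Igf2bp2 -0.0073 with library totals. Without GV Null replicates 2 and 3, Lsm14a became -0.0052, Eif4enif1 -0.018 and Patl2 0.128. With 1 library left out the difference ran from -0.051 to 0.077 for Zar1, -0.175 to 0.170 for Ddx6, -0.165 to 0.065 for Patl2 and -0.018 to 0.105 for Igf2bp2. In WT maturation Eif4e1b became -0.032 with library totals. The members had at least 740 counts in every library.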
